A study of Mus musculus with 18 samples.

Results

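The genes followed here take up glucose and break it down to lactate. They were given as a list of 10 (Slc2a1, Slc2a3, Hk1, Hk2, Pfkl, Pfkp, Aldoa, Pgk1, Eno1 and Ldha), and every probe set whose annotation names 1 of them alone was followed over the 6 groups of thymocyte progenitors. This gave 22 probe sets for 9 of the 10 genes, of 12393 genes measured by 22626 probe sets. Eno1, the enolase of most tissues, is not analysed here, because no probe set carries its symbol alone, and 1 probe set that names Hk1 together with other genes was left out.

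Glucose enters T cells through transporters of the Slc2a family, is trapped by hexokinases, is committed to glycolysis by phosphofructokinases and is split by aldolase. The lower enzymes then make ATP and pyruvate, and lactate dehydrogenase turns pyruvate into lactate. The pathway is known to rise when T lineage cells grow and divide, and in immature thymocytes Notch and cytokine signals are known to support glucose uptake. Myc and the hypoxia-inducible factors are known activators of many of its genes.

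RNA came from fetal and adult C57BL/6 mice. The fetal thymi were from embryos labelled E14.5 (embryonic day), where the methods give a later day, so that the fetal age is in doubt, and the adult thymi from females aged 4 to 6 weeks. At each age lineage-negative cells were sorted into ETP (early T lineage progenitors, CD44+CD25-c-kit+), DN2 (CD44+CD25+) and DN3 (CD44-CD25+), successive stages before the T cell receptor is complete. RNA of 80000 cells per population was amplified in a pair of cycles and hybridised to Affymetrix mouse gene arrays, with 3 arrays for each of the 6 groups. The labels call the arrays of a group biological replicates and the methods describe RNA of several sorts pooled for each array and technical replicates, so that the p-values measure the spread between arrays, part of which may be technical. The cells were not perturbed, and in sorted bulk RNA fewer cells of a type and less RNA per cell cannot be told apart.

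The values are log2 signals, each probe set centred on its own median over the 18 arrays. A value of 1 therefore stands for 2 times the median of that probe set, 0 does not mean absence, and no level can be compared between genes. Calls needed a limma adjusted p (Benjamini-Hochberg over all 22626 probe sets) under 0.05 together with a difference of at least 1.8-fold, which is 0.848 on the log2 scale.

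The 250 bases before the start site are shown for Slc2a1, Pfkp, Aldoa and Ldha, each called in at least 1 comparison of groups, and for Pgk1, which was not called in any, because both known activators of glycolysis bind short defined motifs. Hypoxia-inducible factors bind ACGTG or GCGTG and Myc binds CACGTG. Capitals mark every ACGTG and GCGTG on either strand, so that the reverse complements CACGT and CACGC are also in capitals, and each CACGTG holds ACGTG on both strands and is counted as 2 of them. The sequences are RefSeq promoters of GRCm38.p6, written 5′ to 3′ on the strand of the gene. They lie at chr4:119108495-119108744 (plus strand) for Slc2a1, chr13:6648772-6649021 (minus) for Pfkp, chr7:126799255-126799504 (minus) for Aldoa, chrX:106186850-106187099 (plus) for Pgk1 and chr7:46845554-46845803 (plus) for Ldha.
Slc2a1: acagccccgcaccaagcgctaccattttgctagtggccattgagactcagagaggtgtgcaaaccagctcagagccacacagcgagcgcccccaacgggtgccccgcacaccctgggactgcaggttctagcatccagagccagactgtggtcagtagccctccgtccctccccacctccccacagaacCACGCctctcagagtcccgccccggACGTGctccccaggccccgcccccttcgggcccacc
Pfkp: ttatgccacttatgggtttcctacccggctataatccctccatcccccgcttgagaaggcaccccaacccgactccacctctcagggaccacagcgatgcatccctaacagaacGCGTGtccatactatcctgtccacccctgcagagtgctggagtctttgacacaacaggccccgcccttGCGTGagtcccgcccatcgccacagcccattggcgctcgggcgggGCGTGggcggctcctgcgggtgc
Aldoa: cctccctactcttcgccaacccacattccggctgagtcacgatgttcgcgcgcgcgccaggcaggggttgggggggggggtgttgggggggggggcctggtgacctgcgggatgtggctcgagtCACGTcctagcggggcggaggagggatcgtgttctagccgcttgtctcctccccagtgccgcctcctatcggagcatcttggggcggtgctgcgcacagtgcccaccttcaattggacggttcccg
Pgk1: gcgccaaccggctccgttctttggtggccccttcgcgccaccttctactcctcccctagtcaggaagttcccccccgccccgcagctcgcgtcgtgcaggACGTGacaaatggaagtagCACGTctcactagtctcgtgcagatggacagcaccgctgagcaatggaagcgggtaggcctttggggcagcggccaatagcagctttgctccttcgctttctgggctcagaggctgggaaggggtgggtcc
Ldha: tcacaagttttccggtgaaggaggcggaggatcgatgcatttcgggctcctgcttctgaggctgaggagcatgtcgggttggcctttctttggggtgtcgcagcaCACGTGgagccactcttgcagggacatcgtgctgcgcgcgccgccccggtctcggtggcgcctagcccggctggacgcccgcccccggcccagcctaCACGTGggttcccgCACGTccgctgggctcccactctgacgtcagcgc

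The Slc2a1 window held 1 ACGTG and 1 GCGTG, the Pfkp window 3 GCGTG, the Aldoa window 1 ACGTG and the Pgk1 window 2 ACGTG. The Ldha window held 5 ACGTG, 4 of which belong to its 2 CACGTG. Over 32851 windows of the same length, 16.6% held ACGTG, 28.2% GCGTG, 6.02% CACGTG and 38.6% at least one of the motifs. RefSeq listed 12 start sites for 8 of the genes, and Slc2a3 was not among them. The other window of Ldha held 1 GCGTG. The Aldoa window at chr7:126799179-126799428 overlaps the one shown and held the same ACGTG, and that at chr7:126800448-126800697 held 0. The window of Hk2 held 2 ACGTG and that of Pfkl 1 GCGTG. The Hk1 window at chr10:62340422-62340671 held 3 GCGTG and its other window 0. Hk1 and Pfkl were not called in any comparison. A match is a description of the letters and not of binding, and Pgk1 and Ldha, both with motifs, had different values over the groups.

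The sorting markers followed the gates in the arrays of every group except 1 array of adult DN3. Cd44, the surface marker that DN3 cells lack, was at −8.38 to −6.89 in fetal DN3 and at −7.97 and −7.84 in adult DN3 replicates 1 and 2, and at −0.86 in adult DN3 replicate 3. Mpo, a myeloid gene of the earliest progenitors, was at 0.10 in that array, against −5.68 and −6.14 in the other adult DN3 arrays. The called differences of members that involve adult DN3 are therefore also given without it, and all other values of adult DN3 include it. Embryonic globin Hbb-y was at −0.07 to 0.04 in the fetal replicate 1 arrays and at 2.35 to 5.97 in fetal replicates 2 and 3.

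Over the 6 groups, 12 of the 22 probe sets were regulated (moderated F test, limma, adjusted p under 0.05 and at least 1.8-fold between the highest and lowest group mean), where 16.8% of all probe sets were. They belonged to 6 genes, namely all 3 probe sets of Slc2a1, 2 of 4 of Slc2a3, the 1 of Hk2, 1 of 2 of Pfkp, all 4 of Aldoa and the 1 of Ldha. No probe set of Hk1, Pfkl or Pgk1 passed. The members thus did not move as a block: Slc2a1 and Aldoa were higher in fetal ETP and DN2, 2 of the 4 probe sets of Slc2a3 were highest in fetal DN3, and 1 of the 2 of Pfkp and that of Ldha were lowest in adult ETP.

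**Figure D1:**
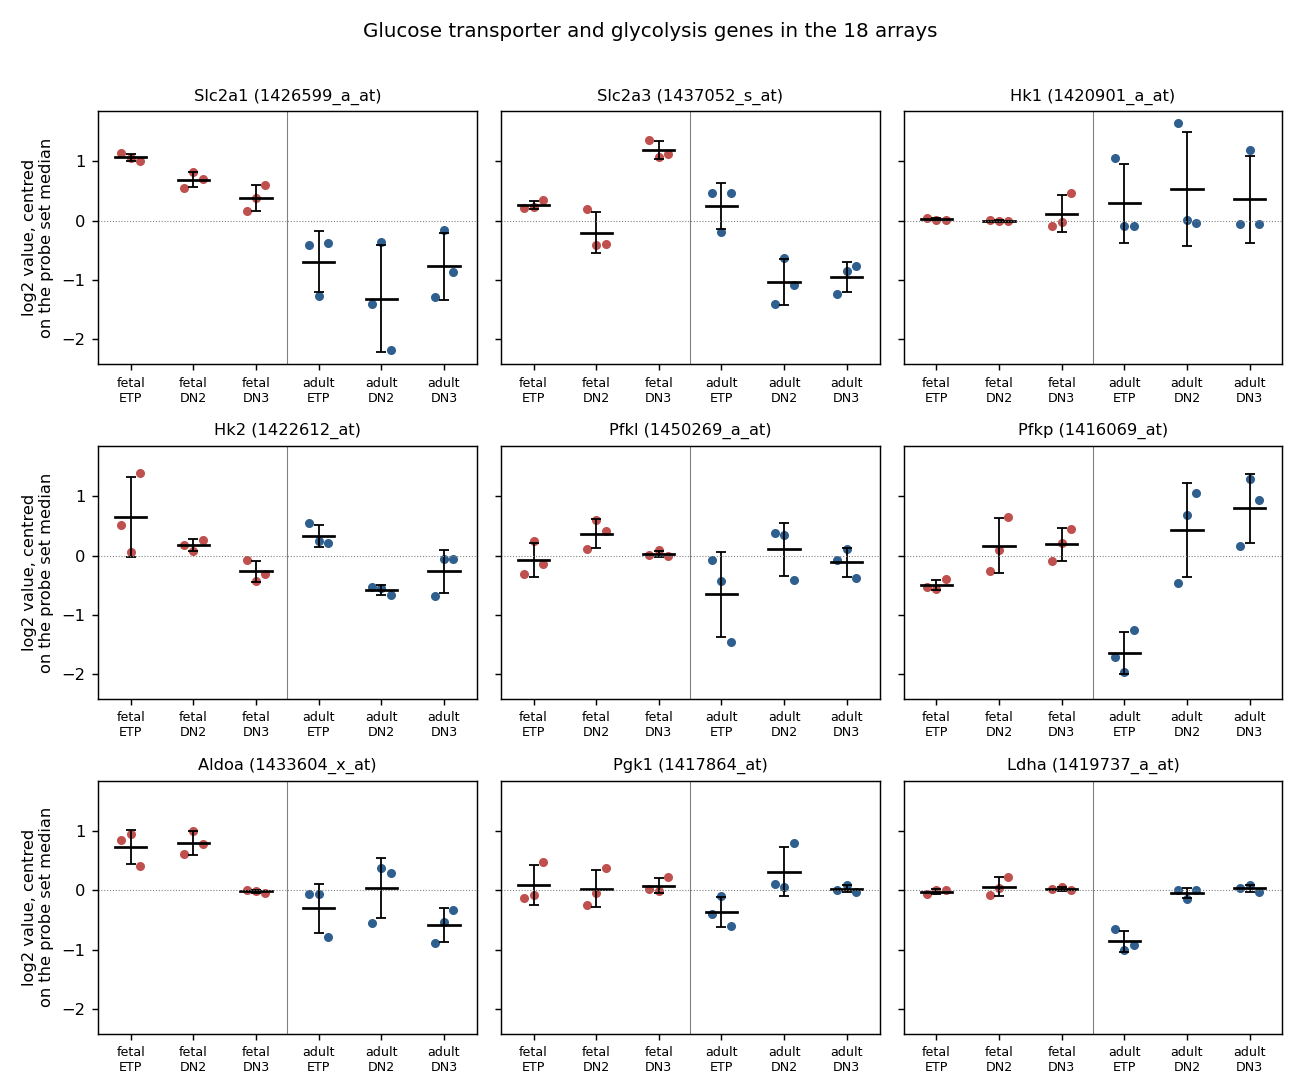
Log2 value of 1 probe set for each of the 9 measured genes, named in the panel title (y axis, centred on the probe set median over the 18 arrays) by group (x axis), with fetal groups in red left of adult groups in blue. Points are arrays, long bars are means and whiskers are SD (n = 3). All fetal Slc2a1 values lie above 0 and all adult ones below it, the 3 fetal DN3 arrays are the highest for Slc2a3 probe set 1437052_s_at (its 2 flat probe sets are not in this plot), and the 3 adult ETP arrays are the lowest for Pfkp probe set 1416069_at and for Ldha.

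Slc2a1 (chromosome 4, 119108745 to 119137330) encodes GLUT1, the main glucose transporter of growing T cells. It was higher in fetal cells, by 3.38-fold in ETP and 4.01-fold in DN2. Probe set 1426599_a_at had 1.13, 1.06 and 1.01 in fetal ETP, against −0.42, −1.28 and −0.38 in adult ETP. In DN2 it had 0.56, 0.81 and 0.70 in fetal cells, against −1.40, −0.37 and −2.18 in adult cells. In DN3 it had 0.16, 0.39 and 0.59 in fetal cells, against −1.29, −0.16 and −0.86 in adult cells. All 9 fetal arrays thus lay above all 9 adult arrays, and the fetal arrays of a group lay closer to each other than the adult ones did.

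The fetal minus adult difference of 1426599_a_at was 1.76 ± 0.39 (SE) at ETP (limma adjusted p = 0.0108), 2.00 ± 0.39 at DN2 (adjusted p = 0.0103) and 1.15 ± 0.39 at DN3 (adjusted p = 0.2, not called). The order of its means was fetal ETP (1.07 ± 0.06, SD), fetal DN2 (0.69 ± 0.13), fetal DN3 (0.38 ± 0.22), adult ETP (−0.69 ± 0.51), adult DN3 (−0.77 ± 0.57) and adult DN2 (−1.31 ± 0.91), each with n = 3. Fetal ETP did not overlap with fetal DN2, nor fetal DN3 with adult ETP, and the other neighbours in this order overlapped. None of its differences between fetal stages was called. Their SE of 0.39 comes from a spread shared with the adult groups, whose SDs were wider. The DN2 call was lost without fetal DN2 replicate 2 (1.94, adjusted p = 0.0506) and when only the DN2 arrays were fitted (adjusted p = 0.225).

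The other probe sets of Slc2a1 gave the same order of ages with other sizes. Probe set 1434773_a_at correlated with the first at r = 0.966 over the 18 arrays and differed by 1.26 ± 0.35 at ETP (limma adjusted p = 0.0364) and 1.86 ± 0.35 at DN2 (adjusted p = 0.00894). Probe set 1426600_at had 1.00, 1.34 and 1.03 in fetal ETP, against −1.65, −0.90 and −1.86 in adult ETP, a difference of 2.59 ± 0.34 (6.02-fold, adjusted p = 3.28e-04). At DN2 its difference of 1.16 ± 0.34 was not called (adjusted p = 0.083), and was called without adult DN2 replicate 2 (1.46, adjusted p = 0.0309) and with a block for the replicate number (adjusted p = 0.0334). Over the mean of the 3 probe sets the differences were 1.87 ± 0.31 at ETP (adjusted p = 0.00167), 1.67 ± 0.31 at DN2 (adjusted p = 0.00743) and 1.03 ± 0.31 at DN3 (adjusted p = 0.122).

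Within adult cells the probe sets of Slc2a1 disagreed. In 1426600_at adult DN3 had −0.79, −0.07 and −0.22, against −1.65, −0.90 and −1.86 in adult ETP, a called difference of 1.11 ± 0.34 (limma adjusted p = 0.0479), while 1426599_a_at differed by −0.08 and 1434773_a_at by −0.54. The call was lost in 14 of the 18 fits that leave out 1 array, among them that without adult DN3 replicate 3 (1.04, adjusted p = 0.13), and the mean of all 3 probe sets differed by 0.16 (adjusted p = 1.0). The call of 1434773_a_at at ETP was lost when any single ETP array was left out (adjusted p 0.0555 to 0.115) and without fetal DN3 replicate 2 (adjusted p = 0.051).

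Erythroid cells also carry GLUT1, and the mean over the erythroid list was higher in fetal cells. The mean over 9 erythroid markers ranged over 0.07 to 1.13 in fetal ETP, 0.20 to 1.04 in fetal DN2 and 0.51 to 1.71 in fetal DN3, against −0.17 to −0.12 in adult ETP, −0.13 to −0.02 in adult DN2 and −0.13 to −0.09 in adult DN3. Of the 9 genes 1 was called at each stage, Gata1 (0.99 higher at ETP, 1.59 at DN2 and 5.0 at DN3). Over all genes 6.16%, 2.11% and 1.95% were higher in fetal cells at these stages. In the fetal replicate 1 arrays, where Hbb-y was near 0, Slc2a1 (1426599_a_at) was at 1.13, 0.56 and 0.16 in ETP, DN2 and DN3, above every adult array. Gata1 was at 0.04, 1.55 and 5.23 in these arrays, while Alas2 was at 0.03, 0.02 and −0.04 and Slc4a1 at 0.05, 0.02 and −0.09. The list mean in DN2 and DN3 of replicate 1 thus came mostly from Gata1. In fetal replicate 3 Alas2 was at 4.12, 5.07 and 6.40. The part of erythroid RNA in the Slc2a1 differences was not tested.

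Slc2a3 (chromosome 6, 122727809 to 122802363) encodes GLUT3, a transporter of high affinity for glucose. Its probe sets fell into a moving and a flat pair. In 1437052_s_at and 1455898_x_at it was 4.41-fold and 5.12-fold higher in fetal than in adult DN3. Probe set 1437052_s_at had 1.36, 1.08 and 1.13 in fetal DN3, against −1.23, −0.86 and −0.76 in adult DN3. In ETP it had 0.22, 0.23 and 0.35 in fetal cells, against 0.47, −0.20 and 0.47 in adult cells. The age groups did not overlap at DN3 and overlapped at ETP.

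The fetal minus adult difference of 1437052_s_at was 0.02 ± 0.23 (SE) at ETP, 0.83 ± 0.23 at DN2 (limma adjusted p = 0.0627) and 2.14 ± 0.23 at DN3 (adjusted p = 6.53e-05). That of 1455898_x_at was −0.22 ± 0.29, 0.69 ± 0.29 and 2.36 ± 0.29 (adjusted p = 2.57e-04 at DN3). Without adult DN3 replicate 3 the DN3 differences were 2.23 and 2.48. The DN2 difference of 1437052_s_at was called without adult DN2 replicate 2 (1.04, adjusted p = 0.0245).

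The courses over the stages ran apart at the 2 ages. Adult DN2 had −1.40, −0.63 and −1.08 in 1437052_s_at, below the adult ETP values above by 1.28 ± 0.23 (limma adjusted p = 0.00346), and adult DN3 was lower than adult ETP by 1.20 ± 0.23 (adjusted p = 0.0032). Without adult DN3 replicate 3 the difference between adult DN3 and adult ETP was −1.29 in this probe set and −1.66 in 1455898_x_at. Fetal DN2 had 0.20, −0.41 and −0.40, and fetal DN3 was higher than fetal DN2 by 1.39 ± 0.23 (adjusted p = 0.00365) and higher than fetal ETP by 0.92 ± 0.23 (adjusted p = 0.0266). Probe set 1455898_x_at gave −1.30, −1.54 and 1.44 for the first 3 of these differences, all called, and 1.04 for the last, not called (adjusted p = 0.0523). The call against fetal ETP was lost without any single fetal ETP or fetal DN3 array (adjusted p 0.0576 to 0.119). For 1455898_x_at the call of fetal DN3 against fetal DN2 was lost without fetal DN2 replicate 2 or 3 or fetal DN3 replicate 1 or 3 (adjusted p 0.058 to 0.0885), and that of adult DN2 without adult ETP replicate 1 (adjusted p = 0.0509) or adult DN2 replicate 1 (adjusted p = 0.0522). When only the compared groups were fitted, the adult calls were lost (adjusted p 0.0635 to 0.246). The order of the means of 1437052_s_at was fetal DN3, fetal ETP, adult ETP, fetal DN2, adult DN3 and adult DN2, with no overlap after fetal DN3 and after fetal DN2. For 1455898_x_at it was fetal DN3, adult ETP, fetal ETP, fetal DN2, adult DN2 and adult DN3.

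**Figure D2:**
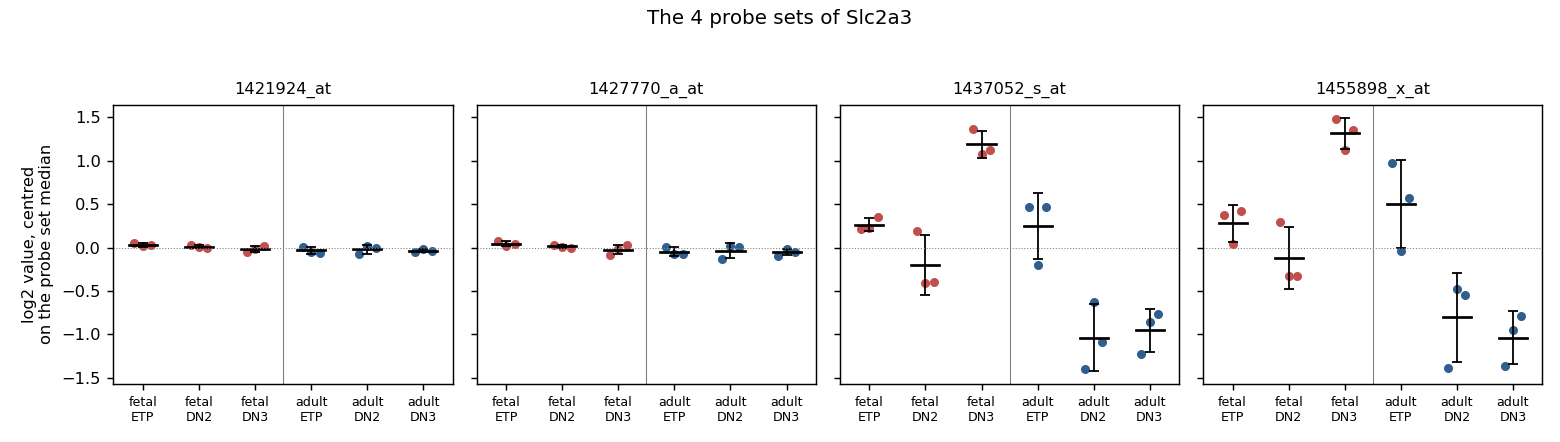
Log2 value of the 4 probe sets of Slc2a3 (y axis, centred on each probe set median) by group (x axis), fetal in red left of adult in blue, with points for arrays, bars for means and whiskers for SD (n = 3). The pair 1437052_s_at and 1455898_x_at is highest in fetal DN3 and lowest in adult DN2 and DN3, and the other pair spans only 0.128 and 0.206 over all arrays.

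The flat pair, 1421924_at and 1427770_a_at, spanned 0.128 and 0.206 over the 18 arrays, where the median span of all probe sets was 1.12, and no comparison called them. They correlated with each other at r = 0.992, with the flat Pfkp probe set 1430634_a_at at 0.967 and 0.946, and with the moving pair at 0.272 to 0.346. The names of the moving pair mark possible cross-hybridization, so that their signal may include other transcripts. Which pair reports Slc2a3 was not tested. Over the mean of the 4 probe sets fetal DN3 was higher than adult DN3 by 1.14 ± 0.14 (limma adjusted p = 2.25e-04), and adult DN2 and DN3 were lower than adult ETP by 0.64 and 0.69, under the fold threshold. In this mean fetal DN3 was higher than fetal DN2 by 0.69 and higher than fetal ETP by 0.46, also under the fold threshold. With fetal DN3 moved Gata1, at 5.23, 4.75 and 4.13 in fetal DN3, against −0.03, −0.33 and −0.55 in adult DN3, and its part in the result was not tested.

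Hexokinases phosphorylate glucose on entry, Hk1 in most cells and Hk2 as the inducible form. Hk2 (chromosome 6, 82725025 to 82774454) had 0.51, 0.05 and 1.39 in fetal ETP and 0.54, 0.24 and 0.20 in adult ETP. In adult DN2 it had −0.52, −0.55 and −0.67, below all other arrays except adult DN3 replicate 1 at −0.69. It passed the F test (adjusted p = 0.0279), with ETP highest at both ages, and none of the pairs compared was called. The largest differences were −0.92 ± 0.26 for fetal DN3 against fetal ETP (adjusted p = 0.0604) and −0.91 ± 0.26 for adult DN2 against adult ETP (adjusted p = 0.0552). The first was called without adult DN3 replicate 1 (adjusted p = 0.0456) or fetal ETP replicate 2 (adjusted p = 0.00883), and the second without adult DN3 replicate 1 (adjusted p = 0.0436) or fetal ETP replicate 2 (adjusted p = 0.0229) or 3 (adjusted p = 0.00678). When only adult DN2 and adult ETP were fitted, the second was also called (limma adjusted p = 0.0361).

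Hk1 (chromosome 10, 62268855 to 62379920) was not called in any comparison. In 1420901_a_at single adult arrays stood out, with 1.06 in ETP replicate 1, 1.65 in DN2 replicate 1 and 1.20 in DN3 replicate 2, while the other adult arrays were between −0.10 and 0.00. All fetal arrays except DN3 replicate 3 (0.47) lay between −0.10 and 0.04. In the adult groups the spread thus exceeded the group differences of this probe set. In 1437974_a_at fetal DN2 had −0.23, −0.63 and −0.86, against 0.53, 0.64 and 0.02 in adult DN2, with no overlap and a difference of −0.97 ± 0.29 that was not called (limma adjusted p = 0.0954).

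Phosphofructokinase commits glucose to glycolysis, with Pfkl as the liver and Pfkp as the platelet type. Pfkp (chromosome 13, 6579874 to 6649060) was lowest in adult ETP. Probe set 1416069_at had −0.54, −0.56 and −0.40 in fetal ETP, against −1.71, −1.96 and −1.26 in adult ETP. At the later adult stages it had −0.45, 0.68 and 1.06 in DN2 and 0.15, 1.29 and 0.94 in DN3. No adult ETP array overlapped with any other group.

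Adult DN2 exceeded adult ETP by 2.07 ± 0.38 (4.20-fold, limma adjusted p = 0.00406, and 0.132 when only these groups were fitted) and adult DN3 exceeded it by 2.44 ± 0.38 (5.42-fold, adjusted p = 6.78e-04; 2.37 without adult DN3 replicate 3). Both comparisons share the adult ETP arrays. Between fetal DN3 and fetal ETP the difference was 0.69 ± 0.38 and not called. Fetal ETP exceeded adult ETP by 1.14 ± 0.38, which was not called (adjusted p = 0.0706), and was called without adult DN2 replicate 1 (adjusted p = 0.0265) and when only the ETP arrays were fitted (adjusted p = 0.043). The second Pfkp probe set, 1430634_a_at, spanned 0.097 and was not called. Pfkl (chromosome 10, 77986947 to 78009807) was not called. In 1450269_a_at it had −0.07, −0.43 and −1.45 in adult ETP and −0.42 to 0.60 in the other groups, and in 1439148_a_at it ranged from −0.45 to 0.67 over all arrays.

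Aldoa (chromosome 7, 126795234 to 126800994), the aldolase of glycolysis in muscle and most growing cells, was higher in fetal ETP and DN2. All 4 of its probe sets are marked for cross-hybridization and they correlated with each other at r = 0.88 to 0.97. Probe set 1433604_x_at had 0.84, 0.95 and 0.41 in fetal ETP, against −0.06, −0.06 and −0.79 in adult ETP. In DN2 it had 0.61, 1.01 and 0.79 in fetal cells, against −0.55, 0.37 and 0.30 in adult cells. In fetal DN3 it had 0.01, −0.01 and −0.04, against −0.89, −0.53 and −0.32 in adult DN3. The ages did not overlap at any stage.

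At ETP the differences of 1.04 ± 0.26 in 1433604_x_at (2.05-fold, limma adjusted p = 0.0203) and 0.89 ± 0.24 in 1434799_x_at (adjusted p = 0.0273) were called. At DN2 those of 0.91 ± 0.24 in 1434799_x_at (adjusted p = 0.0484) and 1.03 ± 0.25 in 1439375_x_at (adjusted p = 0.0368) were called. The remaining ETP and DN2 differences, 0.72 to 0.86, were not called. With a block for the replicate number the DN2 difference of 1434799_x_at missed the threshold (adjusted p = 0.0519). The Aldoa calls lay close to the thresholds. Of the 18 fits that leave out 1 array, 3 lost the ETP call of 1433604_x_at and 4 that of 1434799_x_at. The DN2 calls were lost in 13 (1434799_x_at) and 9 (1439375_x_at). Among these fits were those without fetal ETP replicate 2 at ETP (0.93 and 0.77) and without adult DN2 replicate 1 at DN2 (0.67 and 0.74). For 1434799_x_at the ETP call was also lost with each array centred on its median (0.83), and the DN2 call with robust moderation (adjusted p = 0.0523). All 4 Aldoa calls were also lost when only the compared groups were fitted (adjusted p 0.109 and 0.113 at ETP, 0.284 and 0.36 at DN2). At DN3 the differences were 0.37 to 0.57 and none was called. Fetal DN3 was lower than fetal DN2 by 0.93 ± 0.25 in 1439375_x_at, which was called with the block (adjusted p = 0.0313) and not without it (adjusted p = 0.0805). The order of the means of 1433604_x_at was fetal DN2 (0.80 ± 0.20, SD), fetal ETP (0.74 ± 0.28), adult DN2 (0.04 ± 0.51), fetal DN3 (−0.02 ± 0.03), adult ETP (−0.30 ± 0.42) and adult DN3 (−0.58 ± 0.28).

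Pgk1 (chromosome X, 106187100 to 106203699), which makes the first ATP of the lower pathway, was not called in any comparison. Its probe set 1417864_at ranged from −0.59 in adult ETP replicate 3 to 0.79 in adult DN2 replicate 3, and its fetal minus adult differences were 0.45, −0.29 and 0.05 at ETP, DN2 and DN3. Its other probe sets, 1438640_x_at and 1439435_x_at, had differences of −0.13 to 0.15 between the ages.

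Ldha (chromosome 7, 46842274 to 46855627), which makes lactate from pyruvate, was nearly level except in adult ETP. It had −0.07, 0.01 and 0.00 in fetal ETP, against −0.66, −1.01 and −0.92 in adult ETP. At the later adult stages it had 0.01, −0.14 and 0.00 in DN2 and 0.04, 0.09 and −0.03 in DN3. The fetal DN2 and DN3 arrays lay between −0.08 and 0.23. Only adult ETP stood apart from the other groups, with no overlap.

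Adult DN3 exceeded adult ETP in Ldha by 0.89 ± 0.09 (1.86-fold, limma adjusted p = 1.67e-05; 0.93 without adult DN3 replicate 3). Fetal ETP exceeded adult ETP by 0.84 ± 0.09 (adjusted p = 5.18e-05) and adult DN2 exceeded it by 0.82 ± 0.09 (adjusted p = 6.59e-05), 1.79-fold and 1.76-fold and thus below the fold threshold. Without adult ETP replicate 1 both of these reached it (0.94 and 0.92), and without adult ETP replicate 2 the first comparison no longer did (0.82).

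**Figure D3:**
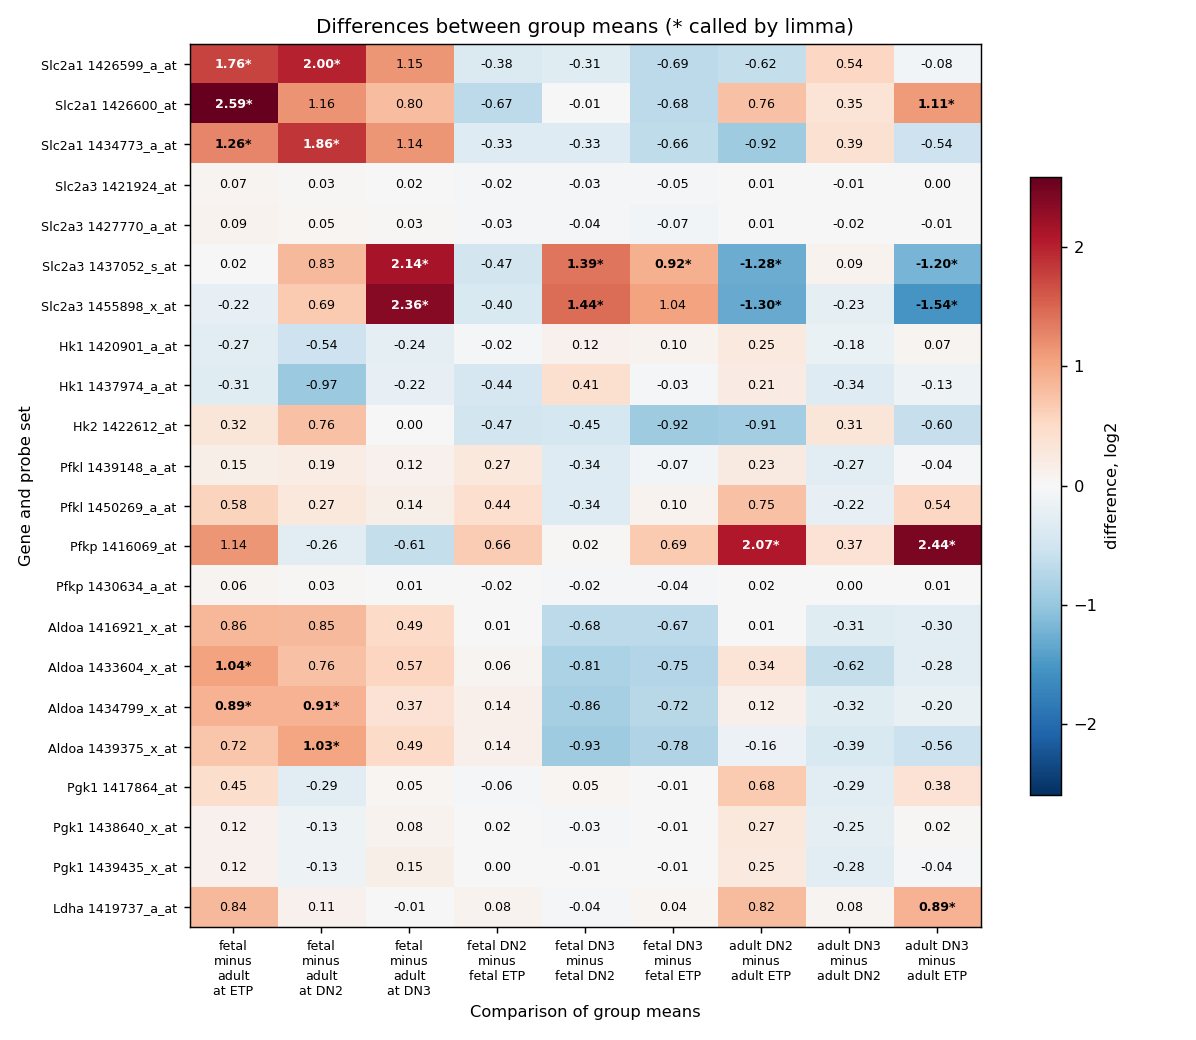
Difference between group means (log2, colour and printed value) for the 22 probe sets (rows) in 9 comparisons (columns), with the fetal minus adult comparisons on the left. Asterisks and bold print mark calls by limma (adjusted p under 0.05 and at least 1.8-fold). Calls at ETP and DN2 lie in Slc2a1 and Aldoa, those at DN3 in Slc2a3, and the adult stage comparisons call Slc2a1, Slc2a3, Pfkp and Ldha.

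Counted over probe sets, 5 of 22 were called higher in fetal than in adult ETP (3 of Slc2a1 and 2 of Aldoa), where 5.04% of all probe sets were, and none lower. At DN2 4 of 22 were higher (2 of Slc2a1 and 2 of Aldoa; 1.87% of all), and at DN3 2 of 22 (both of Slc2a3; 1.6% of all). The probe sets of a gene share their target and are not independent. The median difference over the 22 was 0.38 at ETP, 0.23 at DN2 and 0.13 at DN3, against 0.07, 0.03 and 0.02 over all probe sets. Left out singly, adult ETP replicate 2 or 3 and fetal ETP replicate 1 or 2 lowered the ETP count to 3 or 2, and the DN2 count was 1 without fetal DN2 replicate 2 and 7 without adult DN2 replicate 2.

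With 1 probe set taken for each gene, 2 of 9 genes were higher in fetal ETP (Slc2a1 and Aldoa), 1 in fetal DN2 (Slc2a1) and 0 in fetal DN3, and none was lower. Over all genes 6.16% were higher and 4.06% lower at ETP, 2.11% and 1.94% at DN2, and 1.95% and 1.33% at DN3. For Slc2a3 this choice took the flat 1427770_a_at, so that its DN3 difference does not appear in the gene count. At an unadjusted limma p under 0.05, 10 of the 22 probe sets were below the limit at ETP, 11 at DN2 and 6 at DN3. Over all probe sets the shares were 33.3%, 14.4% and 10.2%.

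Within adult cells, 1 of 22 probe sets was higher in DN2 than in ETP (Pfkp; 2.96% of all) and 2 were lower (Slc2a3; 3.11% of all). None differed between adult DN3 and adult DN2 (0.928% of all in either direction, and 1 of 22 at an unadjusted limma p under 0.05, where 10.9% of all were). Adult DN3 against adult ETP called 3 higher (Slc2a1, Pfkp and Ldha; 5.56% of all) and 2 lower (Slc2a3; 5.2% of all). Over genes, 6.8% of all were higher and 6.09% lower in that comparison, and 2 of 9 members were higher (Pfkp and Ldha) and 0 lower.

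Within fetal cells, none of the 22 differed between DN2 and ETP (0.972% of all, and 0 of 22 at an unadjusted limma p under 0.05, where 5.06% of all were). Fetal DN3 against fetal DN2 called 2 higher (Slc2a3; 1.63% of all), and fetal DN3 against fetal ETP 1 higher (Slc2a3; 2.69% of all). At gene level 3.25% of all genes were higher and 3.13% lower in the last comparison, and 0 of 9 members were called (limma; 7 of 22 probe sets at an unadjusted p under 0.05, where 15.9% of all were). At neither age did the members rise or fall together from ETP to DN3.

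**Figure D4:**
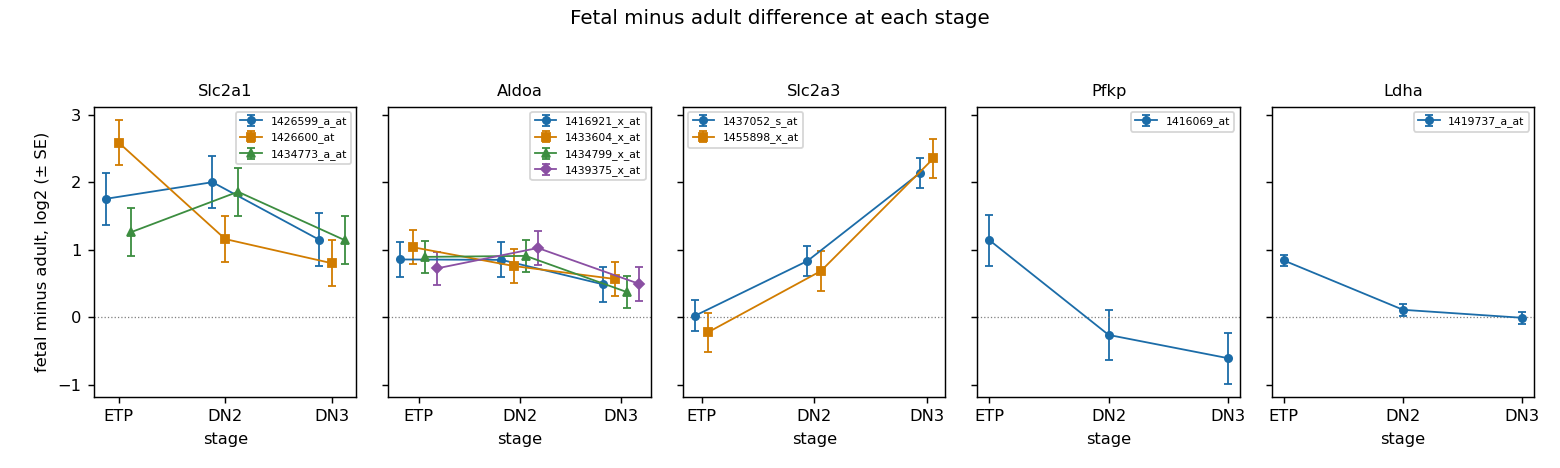
Fetal minus adult difference (y axis, log2, with the SE of the fit) at ETP, DN2 and DN3 (x axis) for the probe sets of Slc2a1 and Aldoa, the moving pair of Slc2a3, the moving Pfkp probe set and Ldha. The Slc2a3 difference is near 0 at ETP and above 2 at DN3, the Ldha difference is 0.84 at ETP and near 0 at the later stages, and the Slc2a1 and Aldoa differences stay above 0 at every stage.

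Whether the age difference itself changed between stages was tested as an interaction. Between ETP and DN3 it rose by 2.12 ± 0.32 in 1437052_s_at (limma adjusted p = 0.00238) and by 2.58 ± 0.41 in 1455898_x_at of Slc2a3 (adjusted p = 0.00335), and it fell by 0.85 ± 0.12 in Ldha (adjusted p = 0.00178). Without adult DN3 replicate 3 these changes were 2.21, 2.70 and −0.88, all called. These were 2 of 22 with a rise, where 1.39% of all probe sets had one, and 1 of 22 with a fall, where 1.1% had one. For Pfkp the change of −1.75 ± 0.53 (adjusted p = 0.127) and for Slc2a1 1426600_at that of −1.79 ± 0.48 (adjusted p = 0.0742) were not called. The first was called without adult DN2 replicate 1 (adjusted p = 0.0475) and the second without adult ETP replicate 2 or adult DN2 replicate 2 or 3 (adjusted p 0.0241 to 0.048). The other steps called 0 of 22, with 0.796% of all between ETP and DN2 and 0.548% between DN2 and DN3 (limma; 6 and 2 of 22 at an unadjusted p under 0.05, where 7.27% and 6.22% of all were).

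Other lists moved with adult ETP, the group in which Pfkp and Ldha were lowest. The mean over 23 cell cycle genes was −0.12 to 0.03 in fetal ETP and −0.39 to 0.34 in adult DN3, against −1.35 to −0.80 in adult ETP. Of the 23, 12 were called higher in fetal ETP and 13 higher in adult DN3 against adult ETP. Over all genes the shares were 6.16% and 6.8%. The mean over 10 myeloid markers was 1.15 to 1.43 in fetal ETP and −0.78 to 0.06 in adult DN3, against 3.06 to 3.94 in adult ETP. Of these 10, 5 were lower in fetal ETP and 6 lower in adult DN3 than in adult ETP, where 4.06% and 6.09% of all genes were. The part of either list in the Pfkp and Ldha differences was not tested.

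The myeloid list also moved with age at the later stages. Its mean was −0.69 to −0.07 in fetal DN2, against 0.08 to 0.72 in adult DN2, and −1.09 to −0.87 in fetal DN3, against −0.78 to 0.06 in adult DN3, with no overlap at either stage. The value of 0.06 was that of adult DN3 replicate 3, whose Cd44 did not follow the gate. Adult DN3 replicates 1 and 2 were at −0.78 and −0.715, close to the highest fetal DN3 value. Of the 10 genes 2 were lower in fetal DN2 (Lyz2 and Ctsg) and 1 in fetal DN3 (Lyz2), where 1.94% and 1.33% of all genes were. At DN2 and DN3, 0 of the 23 cell cycle genes were called, with median differences of −0.09 and 0.01. B lineage markers were not called at any stage (6 genes measured). Of 9 stroma markers 1 was called at ETP, Epcam (2.01 higher in fetal cells), and none at DN2 or DN3. Over all genes 6.16% were higher in fetal ETP and 2.11% in fetal DN2. Of 5 natural killer markers only Gzma, which encodes granzyme A, was called (9.15 higher in fetal ETP and 2.94 in fetal DN2). The mean over these 5 was 1.03 to 1.54 in fetal ETP and 0.23 to 0.28 in fetal DN2, against −0.98 to −0.15 in adult ETP and −0.37 to −0.34 in adult DN2. The other genes of this list differed by −0.51 to 0.38 at ETP and 0.02 to 0.08 at DN2. The difference in the mean thus came mostly from Gzma. The part of these lists in the differences of members was not tested.

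The genes whose values were most like those of a member are given by Pearson r over the 18 arrays, as a description, since the arrays of a group share its mean. For Slc2a1 (1426599_a_at) they were Unc119 (0.906), Lman1 (0.896) and Mmachc (0.893), and for Hk2 they were Map3k20 (0.857), Uhrf1bp1 (0.844) and Fam222b (0.835). For Pfkp they were Ezr (0.939), Sec24d (0.925) and Ada (0.916), and for Aldoa (1433604_x_at) Nudt4 (0.907), Pycrl (0.90) and Tuba8 (0.891). For Ldha they were Acp5 (0.955), Septin6 (0.951) and Drg1 (0.946). For the moving Slc2a3 probe set 1437052_s_at, named after its values were seen, they were Bex1 (0.868), Scamp1 (0.864) and Lgmn (0.844). Unc119 averaged 0.97, 0.99 and 1.08 in fetal ETP, DN2 and DN3, against −1.92, −2.08 and −2.12 in the adult groups. Acp5 averaged −4.60 in adult ETP and −0.25 to 1.40 in the other groups, so that its range was wider than that of Ldha.

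The remaining genes of glycolysis were read from a list of other enzymes and isoforms, of which 14 were measured. At ETP 3 were higher in fetal cells, the phosphoglycerate mutases Pgam2 (1.93 ± 0.55, limma adjusted p = 0.0388) and Pgam1 (1.35 ± 0.19, adjusted p = 6.06e-04) and the triose phosphate isomerase Tpi1 (1.01 ± 0.19, adjusted p = 0.00406), and none was lower. Their median difference was 0.27, against 0.07 over all genes. At DN2 2 were higher (Pgam2 by 5.81 and Pgam1 by 0.96) and at DN3 1 (Pgam2 by 4.67). Pgam2, known as the muscle form, was also higher in DN3 than in ETP, by 7.47 ± 0.55 in fetal and 4.73 ± 0.55 in adult cells, the only gene of this list called in either comparison. Of all genes 3.25% were higher in fetal DN3 than in fetal ETP, and 6.8% in adult DN3 than in adult ETP.

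Of 8 other glucose transporter genes only Slc2a9, known as a urate transporter, was called, lower in fetal ETP by 1.81 ± 0.46 (limma adjusted p = 0.0227). Over all genes 4.06% were lower in fetal ETP. Among 4 measured genes that make or remove fructose bisphosphates by other routes, Fbp1, the fructose bisphosphatase of gluconeogenesis, was higher in fetal cells at every stage, by 3.71 ± 0.53 at ETP, 3.71 at DN2 and 5.31 at DN3 (adjusted p = 3.53e-05 at DN3). In fetal DN3 it was 3.00 higher than in fetal ETP. Over all genes 6.16%, 2.11% and 1.95% were higher in fetal ETP, DN2 and DN3 than in adult cells, and 3.25% in fetal DN3 than in fetal ETP.

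Of 15 genes of lactate and pyruvate handling 3 were higher in fetal ETP, the monocarboxylate transporter Slc16a1 (1.69 ± 0.25, limma adjusted p = 7.12e-04), its partner Bsg (2.13 ± 0.53, adjusted p = 0.0199) and the mitochondrial pyruvate carrier Mpc1 (1.96 ± 0.48, adjusted p = 0.0188). Adult DN3 exceeded adult ETP in the same genes, by 2.40, 1.95 and 2.15. Over all genes 6.16% were higher in fetal ETP and 6.8% in adult DN3 against adult ETP. Ldhb, the other lactate dehydrogenase subunit, was higher in DN3 than in ETP at both ages, by 2.60 ± 0.30 in fetal and 2.72 ± 0.30 in adult cells. It had 2.21, 2.32 and 2.34 in fetal DN3, against −0.51, −0.14 and −0.29 in fetal ETP. In adult DN3 it had 2.33, 2.26 and 1.28, against −0.84, −0.73 and −0.72 in adult ETP. Ldhb thus rose with stage at both ages, where Ldha differed only in adult ETP. For Slc16a7, a second carrier of lactate and pyruvate, DN3 minus ETP was −4.14 in fetal and −3.97 in adult cells.

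**Figure D5:**
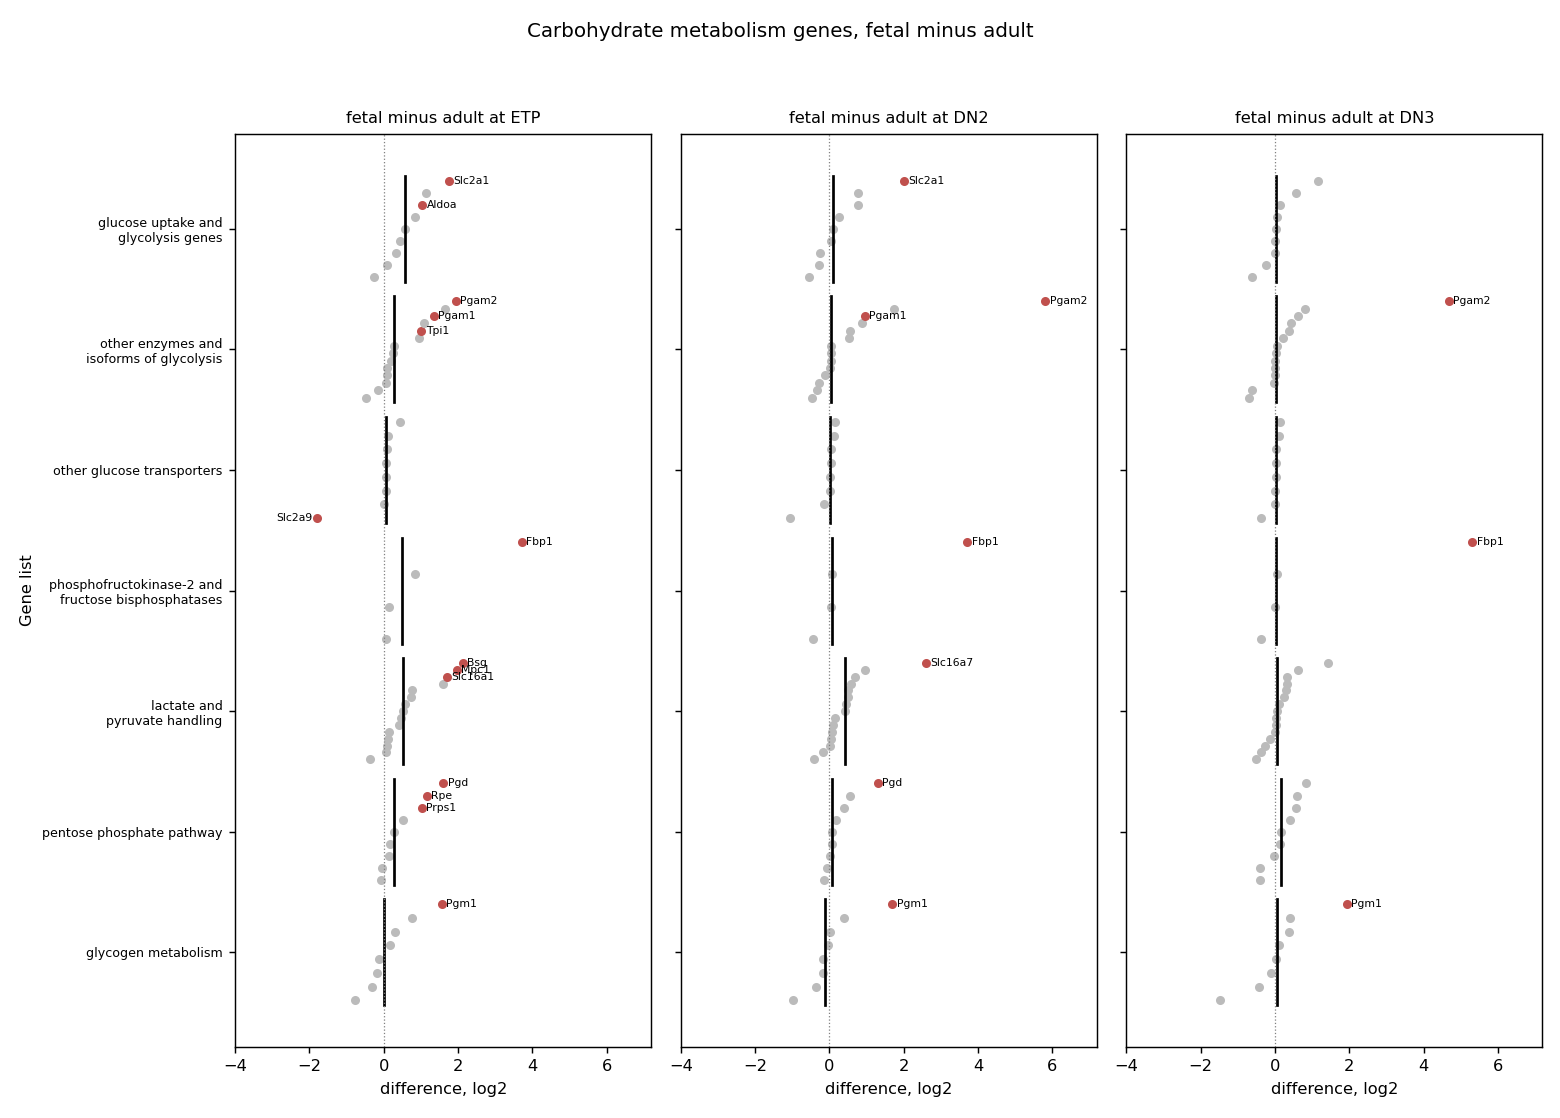
Fetal minus adult difference (x axis, log2) at ETP, DN2 and DN3 (panels) for 1 probe set of each measured gene in 7 lists of carbohydrate metabolism (y axis). Red named points were called by limma, grey points were not, and black bars are list medians. Pgam2 and Fbp1 stand farthest to the right at DN2 and DN3, and most genes of each list were not called.

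In the pentose phosphate pathway, which branches from glycolysis towards NADPH and nucleotides, 3 of 9 genes were higher in fetal ETP, namely Pgd (1.60 ± 0.27, limma adjusted p = 0.00192), Rpe (1.16 ± 0.35, adjusted p = 0.0486) and Prps1 (1.02 ± 0.17, adjusted p = 0.00212), and Pgd was also higher in fetal DN2 (1.30). Over all genes 6.16% were higher in fetal ETP and 2.11% in fetal DN2. Of 8 genes of glycogen metabolism Pgm1, a phosphoglucomutase, was higher in fetal cells at every stage (1.57, 1.69 and 1.93). At DN3 1.95% of all genes were higher in fetal cells. For Pygl, a glycogen phosphorylase, DN3 minus ETP was −6.37 ± 0.92 in fetal and −5.65 ± 0.92 in adult cells (adjusted p = 5.83e-04 and 0.00103).

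Genes that govern the pathway did not move in a single direction. Hif1a and Myc themselves were not called at ETP (0.62 ± 0.82, limma adjusted p = 0.574, and 0.52 ± 0.44, adjusted p = 0.362). Their adult ETP arrays lay far apart, at −2.47, 0.01 and 1.51 for Hif1a and at 0.29, −1.31 and −0.55 for Myc, so that a moderate difference could be missed. Of 17 genes of the hypoxia-inducible factor pathway and its targets outside glycolysis, 1 was higher in fetal ETP (Egln3, 1.32) and 2 lower (Egln1, −1.19, and Mxi1, −1.15). Over all genes 6.16% were higher and 4.06% lower in fetal ETP. Egln1 and Egln3 encode prolyl hydroxylases that mark the factors for breakdown. At DN2 Egln3 was higher (2.07) and Mxi1 lower (−1.14), and at DN3 Bnip3, a gene of mitochondrial turnover, was lower (−3.13). Of all genes 2.11% were higher and 1.94% lower at DN2, and 1.33% were lower at DN3. Of 15 Myc and growth regulators none was called higher in fetal cells at any stage. Myc averaged −0.14 in fetal DN2 against −1.21 in adult DN2, and 0.09 in fetal DN3 against 0.46 in adult DN3. Txnip, an inhibitor of glucose uptake, was lower in fetal ETP by 2.18 ± 0.33 (limma adjusted p = 0.00101) and in fetal DN2 by 2.06 ± 0.33 (adjusted p = 0.00271). It had −0.94, −1.05 and −0.07 in fetal ETP, against 1.68, 1.44 and 1.36 in adult ETP, with no overlap. Tsc1, an inhibitor of mTOR signalling, was also lower in fetal ETP (−1.30), Mxd3, a Myc network factor, was lower in fetal DN2 (−2.0) and Mycn was lower in fetal DN3 (−1.59).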

How the data were processed

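RNA was measured on 18 Affymetrix arrays in 6 groups of 3. The deposited log2 values came from GCRMA (named in the submitters' processing notes, version not given in the sources used here), and every probe set had a median of 0 over the arrays (largest remainder 5e-07). That the base is 2 is taken from the method and from the widest span of 12.95. Array medians lay between −0.089 and 0.05, and the number of arrays limits the precision.

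Groups and replicate numbers were taken from the labels, and 0 columns were left unmapped. A single model with a mean for each group was fitted to the 18 arrays (limma 3.58.1, R 4.3.3, no variance trend) and was tested on simulated data. Pairs of groups, the moderated F test and the interaction of age and stage were tested with Benjamini-Hochberg adjustment over 22626 probe sets, and a call also needed 1.8-fold. Probe sets were named from the platform annotation, in which 20380 name 1 gene, 691 several and 1555 none. For a gene with several probe sets 1 was taken, preferring names that do not mark cross-hybridization (_s_at, _x_at), then the largest SD, and the members were also given probe set by probe set. All 9 member symbols were found in the gene annotation of GRCm38.p6. Named genes were all members, up to 3 called genes of each list with the largest difference in each direction, and the 3 genes most like each regulated member.

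The members and the lists were chosen with earlier results of these data known. Same-numbered arrays deviated together in 9 of 9 pairs of fetal arrays (r = 0.312 to 0.597), in 5 of 9 pairs of adult arrays and in 13 of 27 pairs between the ages. Every fetal pair and every pair of adult DN2 with adult DN3 or with a fetal group exceeded 0.1, so that the numbers were taken to pair these groups and not the others, as a hint from the data. The main fit held no term for the replicate number, so that its differences between these groups were tested as unpaired. Only the replicate block, an alternative, took the numbers into account. The alternatives were centring of each array, the replicate block, array weights, robust moderation, the compared groups alone, no fold threshold, no cross-hybridizing probe sets, the methods' one-way test (over all probe sets only), gene means over probe sets, and leaving out each array.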

Additional observations from a re-analysis of the deposited data

Results flagged for a closer look

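In 3 results the fetal minus adult difference changed between ETP and DN3 by the test of that change itself. For Slc2a3 it rose by 2.12 in probe set 1437052_s_at and by 2.58 in 1455898_x_at, the pair whose names mark cross-hybridization, while the other pair of Slc2a3 probe sets was flat. For Ldha it was −0.85, that is, the difference of 0.84 at ETP was −0.01 at DN3. The change in Ldha lies next to the fold threshold and fell below it in 7 of the fits that leave out 1 array, with the lowest size at −0.78 without adult ETP replicate 2, and when each array was centred on its median (−0.80). Both Slc2a3 changes were called in every fit that leaves out 1 array.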

How the results depend on the processing

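No called difference of a member changed its direction under any alternative run. Of the named differences under each setting, 527 stayed on the same side of the thresholds and 98 fell below one of them, and of the counts of called member probe sets 272 stayed within 1.5 times and 53 did not. With arrays left out singly, the counts ranged from 2 to 7 at ETP, 1 to 7 at DN2 and 2 to 3 at DN3 for fetal against adult, from 2 to 5 for adult DN2 against ETP, 0 to 0 for adult DN3 against DN2, 4 to 5 for adult DN3 against ETP, 0 to 0 for fetal DN2 against ETP, 1 to 4 for fetal DN3 against DN2, 0 to 2 for fetal DN3 against ETP, 0 to 0, 0 to 1 and 2 to 4 for the changes of the age difference from ETP to DN2, DN2 to DN3 and ETP to DN3, and from 11 to 12 for regulation over the 6 groups.

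Without cross-hybridizing probe sets the counts were 3 at ETP, 2 at DN2 and 0 at DN3, 1 for adult DN2 against ETP, 3 for adult DN3 against ETP, 0 for fetal DN3 against DN2 and against ETP, and 1 for the change from ETP to DN3, since fewer probe sets were counted. With the compared groups alone (fewer arrays, and a spread from those groups only) they were 0 at DN2 and 2 for fetal DN3 against ETP. For adult DN2 and DN3 against ETP they were 1 (Hk2, not called in the main fit) and 2. With array weights they were 5 for adult DN2 against ETP, 3 for adult DN3 against DN2, 4 for fetal DN3 against DN2, 2 for fetal DN3 against ETP, and 2, 2 and 5 for the changes of the age difference; the cause was not tested. Centring each array gave 2 for fetal DN3 against ETP, and no fold threshold gave 1 for the change from ETP to DN2. The replicate block gave 7 at ETP (with Pfkp and another Aldoa probe set) and 5 for the change from ETP to DN3 (with Pfkp and a Slc2a1 probe set). The numbers were not taken to pair fetal with adult arrays at ETP or at DN3. The other counts stayed within 1.5 times. A filter on low levels could not be run, because centred values hold no level, and signal over background is unknown here.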
